A study of Mus musculus with 2 samples.

Results

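The microRNAs (miRNAs) miR-140 and miR-455 were followed through both arms of their hairpins, mmu-miR-140-5p, mmu-miR-140-3p, mmu-miR-455-5p and mmu-miR-455-3p (written below without the mouse prefix), in whole mouse femur. These 4 were taken by name from the array, with all their probes, out of 1881 mouse miRNAs measured. Femurs, marrow and bone together, came from 9-month-old wild-type female mice of C57BL/6 background that had undergone ovariectomy (OVX), in which the ovaries and with them the main source of estrogen are taken out, or a sham operation. The interval between surgery and collection is not given in the sources used here. Each group was 1 RNA pool from 4 mice on 1 single-colour Agilent miRNA array, so no test was possible, no p-value is given, and "higher" and "lower" describe these 2 arrays. Errors of signals are SDs between the spots of a probe and errors of differences are standard errors between those spots (spot SE); both are technical and hold no variation between mice.

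MicroRNAs are short RNAs that pair with messenger RNAs, mainly through the seed at bases 2 to 8, and lower their output. A hairpin precursor is cut into a duplex whose 5p and 3p strands can each be loaded into the silencing complex, so that a single transcript can give a pair of miRNAs with different targets. In mice miR-140 is made from an intron of Wwp2 and is abundant in chondrocytes, where the cartilage factor Sox9 drives it. Mice without it have short bones and lose articular cartilage early. miR-455 lies in Col27a1, which encodes a fibrillar collagen of cartilage, and is likewise known from chondrocytes. In the RefSeq gene table (assembly GRCm38) Mir140 and Mir455 fall within Wwp2 and Col27a1.

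Mature sequences are shown because the arms of a hairpin act through unrelated seeds. They also show that the probes of the 3 miRNAs below pair up to the last base and reach only part of the seed. RefSeq (build GRCm38.p6) matched 3 of the 4 names, all but mmu-miR-140-5p, with miR-140-3p on the plus strand of chromosome 8 and miR-455 on the plus strand of chromosome 4. Capitals mark the seed.
miR-140-3p: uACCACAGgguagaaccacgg
miR-455-5p: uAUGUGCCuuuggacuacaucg
miR-455-3p: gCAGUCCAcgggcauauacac
No seed was shared among these 3. Each of the 4 miRNAs had 2 probes that differ by 1 base in length, and for miR-140-3p the part of the miRNA that each probe pairs with is in capitals here.
Probe of 14 bases: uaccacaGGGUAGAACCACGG
Probe of 15 bases: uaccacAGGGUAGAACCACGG
The probes of miR-140-3p therefore read bases 8 to 21 and 7 to 21, with 1 and 2 bases of the seed. Chondrocytes are known to make forms of miR-140-3p that differ at the 5′ end, and such forms share the stretch that these probes read. The probes of miR-455-5p pair from base 6 and base 5 on, and those of miR-455-3p from base 7 and base 6 on, each to the last base. The miR-140-5p probes have 20 and 21 bases, and which bases they read was not worked out because its sequence was not matched.

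On the array design's build (mm9), the miR-140-5p probes match chromosome 8 from 110075151 to 110075170 and the miR-140-3p probes match the same chromosome from 110075195 to 110075208. The miR-455-5p probes match chromosome 4 from 62917906 to 62917922 and the miR-455-3p probes from 62917944 to 62917958. These coordinates are given as listed with the array. Counting both ends, each range is shorter than the longer of its probes, and the reason was not worked out. The longest run of bases that a member's probe shared with a probe of any other miRNA was 7 to 8 bases for miR-140-5p, 8 to 9 for miR-140-3p, 7 for miR-455-5p and 10 for miR-455-3p.

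Both arms of miR-140 were detected in both pools and neither arm of miR-455 was in either. The scanner software marks spots that stand well above background. A probe passed if more than 50% of its spots carried that mark, and a miRNA counted as present if any of its probes passed. By that rule 15.9% of all miRNAs were present on the OVX array and 10.7% on the sham array, and 2 of the 4 members were present on each. All 28 usable miR-140-5p spots on the OVX array and all 28 on the sham array were well above background. For miR-140-3p this held for all 29 spots on the OVX array and all 30 on the sham array.

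mmu-miR-140-5p, the arm best known from cartilage, whose targets include the aggrecan-cutting protease Adamts5, gave the clearer gap in raw brightness. Its probe of 21 bases had a processed signal (spot brightness after background subtraction, arbitrary units) of 99.9 ± 5.63 on the OVX array (SD between 14 spots) and 40.7 ± 5.29 on the sham array (SD between 14 spots). Its spots ran from 87.5 to 106.9 on the OVX array and from 32.2 to 50.6 on the sham array. The probe of 20 bases averaged 57.8 ± 5.86 on the OVX array and 27.6 ± 4.11 on the sham array (SD, 14 spots each), with ranges of 43.0 to 64.7 and 20.6 to 35.7. For both probes every OVX spot was brighter than every sham spot in this unscaled signal. The OVX array as a whole was brighter, and after the scaling described below the spots of both probes overlapped between arrays.

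mmu-miR-140-3p was also brighter on the OVX array, but by less. Its probe of 15 bases averaged 196.7 ± 24.96 on the OVX array and 148.8 ± 18.2 on the sham array (SD, 15 spots each). The spots ran from 145.2 to 225.0 on the OVX array and from 99.95 to 167.8 on the sham array, so the arrays overlapped. The probe of 14 bases averaged 59.9 ± 10.1 on the OVX array (SD between 14 spots) and 38.4 ± 7.32 on the sham array (SD between 15 spots), again with overlap, since the dimmest OVX spot read 36.4 and the brightest sham spot 47.9. Brightness depends on the probe, so these signals do not show which arm was more abundant.

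**Figure D1:**
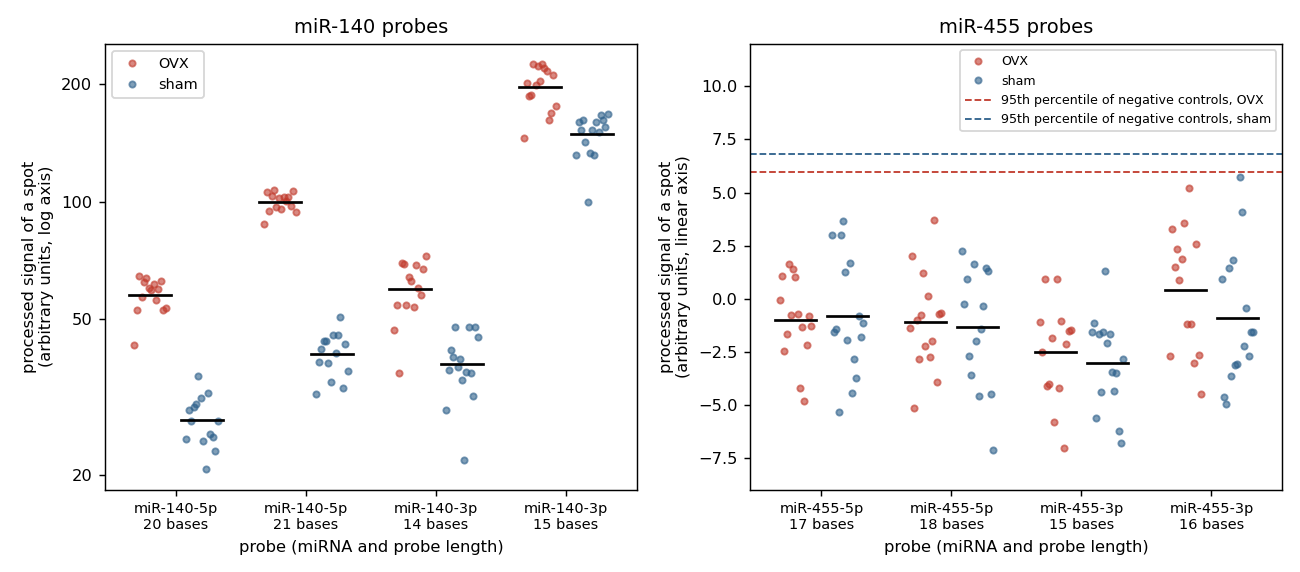
Processed signal of every usable spot (arbitrary units) for the 8 probes of the 4 miRNAs, OVX left of sham within each probe, with black bars at the mean; the left axis is logarithmic and the right axis linear. Within a probe, these unscaled miR-140-5p spots do not overlap between arrays and the miR-140-3p spots do. After scaling (not shown) the spots of both arms overlap. All miR-455 spots lie below the 95th percentile of the negative control spots, 5.95 on the OVX array and 6.80 on the sham array (dashed lines).

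The OVX array as a whole was brighter, so the signals were scaled. The scale was the 75th percentile of the 350 probes that passed on both arrays, which stood 2.02-fold higher on the OVX array (1.01 on the log2 scale). Values below are log2, OVX minus sham, after this scaling, and so are relative to the other miRNAs. miR-140-5p had a level of -1.78 in OVX and -1.94 in sham, a difference of 0.17 (spot SE 0.04), or 1.12-fold. Its probe of 21 bases differed by 0.28 and its probe of 20 bases by 0.05, the second within its spot SE of 0.07. After scaling the spots of each probe overlapped. The dimmest OVX spot stood at -1.57 and the brightest sham spot at -1.35 for the probe of 21 bases. For the probe of 20 bases these were -2.60 and -1.85. miR-140-3p had a level of -1.26 in OVX and -0.77 in sham, a difference of -0.49 (spot SE 0.06), or 0.712-fold. Its probe of 15 bases differed by -0.61 and its probe of 14 bases by -0.37.

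With this scaling neither arm reached 1.5-fold in either direction (0.58 on the log2 scale). miR-140-3p was past 1.5-fold lower with median scaling (-0.67), its brightest probe (-0.61), the value table (-0.67) and a filter set by the negative controls (-0.68). miR-140-5p was past 1.5-fold higher on unscaled signals (1.18) and after scaling to control probes (0.84). Among the 197 miRNAs present on both arrays, 22 (11.2%) reached 1.5-fold on the higher side in OVX and 29 (14.7%) on the lower side. At 2-fold these were 4 (2.03%) and 4 (2.03%). The split follows the scaling: at 1.5-fold it was 155 higher and 0 lower on unscaled signals, 108 and 2 after scaling to control probes and 13 and 46 after median scaling. The median of the 197 differences was -0.04, with quartiles of -0.36 and 0.28. The miR-140-5p difference was higher than that of 132 of these miRNAs and lay inside the quartiles. The miR-140-3p difference was higher than that of 34 and lay below the lower quartile. The SD between probes of the same miRNA was 0.11, which is technical and leaves out any variation between pools or arrays. In whole tissue, fewer cells that make a miRNA and less of it per cell cannot be told apart.

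The sign of each arm depended on the scaling. Without scaling both arms were higher in OVX, by 1.18 for miR-140-5p and 0.52 for miR-140-3p. With control-probe scaling miR-140-3p was at 0.18, and with median scaling miR-140-5p was at -0.02. Relative to the median of all miRNAs, miR-140-5p stood at 0.21 and miR-140-3p at -0.45, which 4 of the 16 alternatives, shifting all probes alike, cannot change. Under the other 12 miR-140-5p stood 0.05 to 0.38 above that median and miR-140-3p at -0.56 to -0.19 from it.

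**Figure D2:**
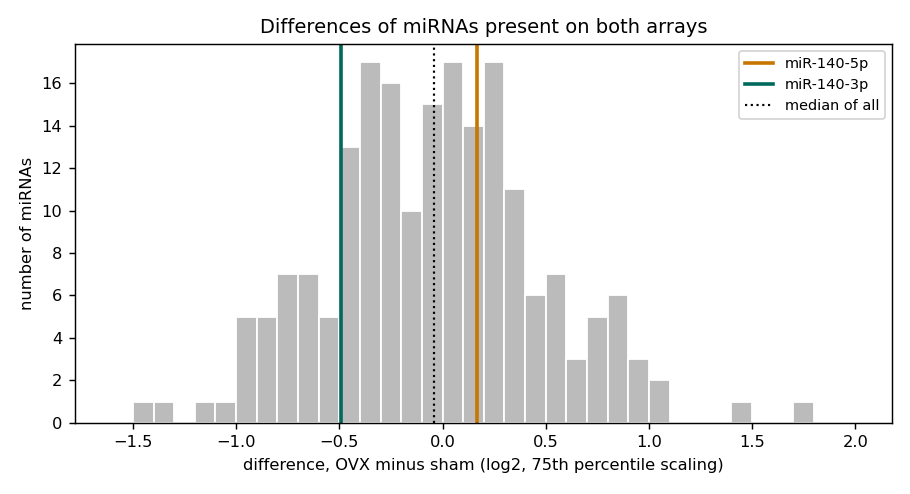
Number of miRNAs (vertical axis) by difference, OVX minus sham (log2), for the 197 miRNAs present on both arrays, with lines at miR-140-5p (0.17), miR-140-3p (-0.49) and the median of all (-0.04). Both arms fall inside the bulk of the distribution, on opposite sides of the median.

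The arms were then compared with each other, which needs no scaling between arrays as long as it shifts all probes alike. The 5p difference stood 0.66 above the 3p difference (spot SE 0.07), a change of 1.58-fold in the ratio of the arm signals. Over the 4 pairings of a 5p probe with a 3p probe the contrast ran from 0.42 to 0.89, so all pairings gave the same direction. It was 0.75 from the summed probes, 0.75 from Agilent's gene-level signal and 0.81 in the deposited value table. With normexp background correction, whose offset of 50 draws dim signals together, it was 0.24.

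Such a gap between arms was common on these arrays. Both arms were present on both arrays for 9 hairpins, and in 6 of them (66.7%) the arms differed by at least 1.5-fold in either direction, miR-140 included. In 3 of the 9 (33.3%) the 5p arm was the higher by that much. The contrasts ran from -1.54 for miR-7047 to 0.71 for miR-652, with an SD of 0.90, and 5 of the other 8 hairpins had a larger contrast than miR-140 in size. After the scaling described above, the arms lay on opposite sides of 0 in 7 of the 9 hairpins, miR-140 among them. Unlike the contrast, the side of 0 depends on that scaling. The lowest arm value was -0.97, for the 5p arm of miR-7047, and the scaling had taken off 1.01. Without scaling, therefore, no arm of the 9 hairpins lies below 0, and the miR-140 arms stood at 1.18 (5p) and 0.52 (3p). The hairpin closest to miR-140 was miR-6984, at 0.19 for its 5p arm and -0.48 for its 3p arm after scaling. The latter came from 1 of its 2 probes.

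The probes of the miR-140 arms also differ in length and base content. They have 20 and 21 bases for miR-140-5p and 14 and 15 bases for miR-140-3p, and the part of probe length in the contrast was not tested. GC content averaged 43.9% for the miR-140-5p probes and 62.1% for the miR-140-3p probes. Across the 197 miRNAs, which share the arrays and the labelling, the difference tended to be lower at higher GC (Spearman's rho -0.32). After a linear trend with GC was removed, the contrast was 0.44, with miR-140-5p at 0.03 and miR-140-3p at -0.41. Over the 9 hairpins, Spearman's rho between the contrast and the GC gap of the arms was 0.17.

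**Figure D3:**
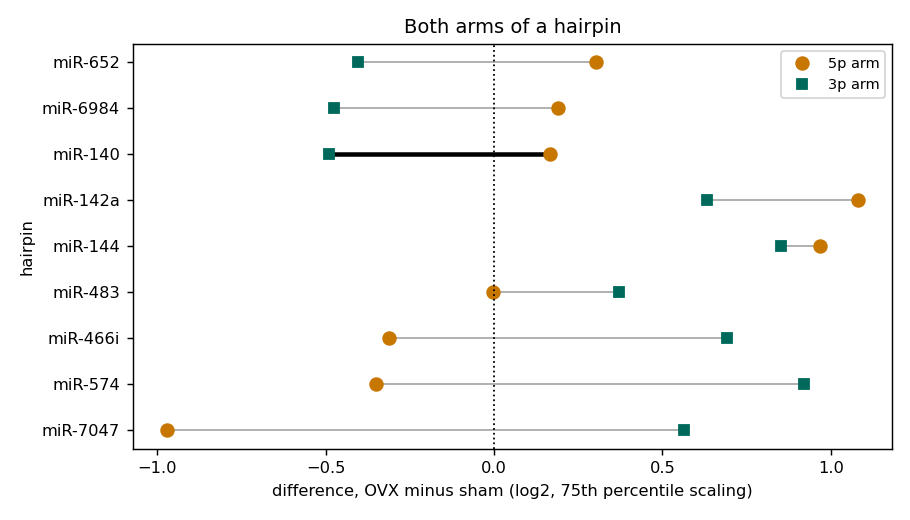
Difference, OVX minus sham (log2), of the 5p arm (circles) and the 3p arm (squares) of the 9 hairpins with both arms present on both arrays, 1 hairpin a row in the order of their contrast. The miR-140 arms (thick line) lie 0.66 apart, and 5 other hairpins have arms that lie further apart.

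mmu-miR-455-5p and mmu-miR-455-3p, which in mouse chondrocytes are reported to act on hypoxia signalling and on TGF-beta signalling, gave no signal above the array's background. The miR-455-5p probes averaged -1.01 and -1.10 on the OVX array and -0.837 and -1.36 on the sham array, for the probes of 17 and 18 bases in that order. The miR-455-3p probes averaged -2.50 and 0.424 on the OVX array and -3.04 and -0.932 on the sham array, for those of 15 and 16 bases. All 4 probes on each array thus lay around 0 or below it. Negative control spots averaged 1.36 ± 2.86 on the OVX array (SD between 978 spots) and 1.93 ± 2.81 on the sham array (SD between 982 spots).

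Of the miR-455 spots, 0 of 58 on the OVX array and 0 of 59 on the sham array exceeded the 95th percentile of the negative control spots. The brightest, from the miR-455-3p probe of 16 bases, read 5.23 on the OVX array and 5.72 on the sham array. The dimmest probe of any miRNA that was called present averaged 19.3 on the OVX array and 17.8 on the sham array. Signals under those values bound what could be seen, so no difference or fold is given for either arm, and miR-455 was not detectable rather than shown to be absent. In this it resembled most miRNAs on the array, since 1577 of the 1881 were present on neither array. The gap between arrays was at most 1.36 signal units (spot SE 1.13), for the miR-455-3p probe of 16 bases.

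Other miRNAs with the same seed were looked up next for the 3 members with a matched sequence. For miR-140-5p, which had none, no seed was looked up, so whether it shares its seed is not known here. The seed of miR-140-3p was shared by 1 other miRNA on the array, miR-497b, which was present on both. Its brightest probe read 66.6 on the OVX array and 37.9 on the sham array, and its difference after scaling was -0.26, on the same side of 0 as miR-140-3p. The seed of miR-455-5p was shared by miR-5129-3p, whose brightest probe read 1.39 on the OVX array and 0.835 on the sham array and was not well above background. The seed of miR-455-3p was shared by none. By difference alone, which over 2 arrays is a weak measure of likeness, the nearest to miR-140-5p were miR-669n (0.17), miR-374c-5p (0.16) and miR-6984-5p (0.19). The nearest to miR-140-3p were miR-6969-5p (-0.49), miR-139-5p (-0.49) and miR-690 (-0.48).

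Of a list of 24 other miRNAs reported to act in cartilage, 10 were present on both arrays, 2 on the OVX array only and 12 on neither. Of all 1881 miRNAs, 197 were present on both and 1577 on neither, with 299 present on the OVX array and 202 on the sham array. The 10 had a median difference of 0.14, against -0.04 for all 197 miRNAs, with 6 of the 10 above 0, against 93 of the 197. After GC correction the list's median was 0.05 above that of all miRNAs, against 0.18 as reported, and 5 of its members were above the median of all, against 8. Only miR-29b-3p (0.89), which targets collagen messages, was past 1.5-fold among the 10, against 11.2% higher and 14.7% lower of all 197. The values of miR-29b-3p, miR-27b-3p and miR-34a-5p each rest on 1 of 2 probes, as the other did not pass on both arrays. The let-7 family sustains proliferation of growth plate chondrocytes in mice. Its members let-7g-5p (0.55) and let-7i-5p (0.25) were above 0, and let-7b-5p (-0.22) and let-7c-5p (-0.03) below. miR-29a-3p (0.39) and miR-34a-5p (0.39) were above 0 and miR-148a-3p was at 0.04. miR-27b-3p, which represses the collagenase MMP13 in human chondrocytes, was at -0.25, and miR-483-5p was at -0.0037. Among the 2 called present in OVX alone, miR-146a-5p, a brake on inflammation, was 2.07-fold higher in OVX after scaling. This is a ratio of measured signals and not a lower limit. Its brightest probe read 18.2 on the sham array, above the dimmest present probe there (17.8). The bound for miR-199a-3p was under 1, so no fold is given for it.

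Whole femur holds many cells other than chondrocytes, and their miRNAs were looked up beside miR-140. Of 15 marker miRNAs chosen for red cells, myeloid cells, muscle, endothelium and lymphocytes, 9 were present on both arrays, and 7 of these lay above 0, against 93 of all 197. Their median difference was 0.77, against -0.04 for all 197. At 1.5-fold, 6 of the 9 were higher in OVX and 2 lower, against 11.2% higher and 14.7% lower of all 197. Their levels ran from -1.51 to 4.78 on the OVX array and from -2.27 to 4.84 on the sham array. Markers listed under the same cells went both ways, and how specific each is to those cells was not tested. Of those listed for red cells, miR-451a (0.28), miR-144-3p (0.85) and miR-144-5p (0.97) were above 0 and miR-486a-5p (-0.71) below. Of those listed for myeloid cells, miR-142a-3p (0.63) and miR-142a-5p (1.08) were above 0. From the same list miR-223-3p (-0.63) was below and miR-223-5p was present on neither array. The endothelial miR-126a-3p was at 0.77, with miR-126a-5p present on neither array, and miR-150-5p of lymphocytes was at 1.43. The values of miR-144-5p and miR-150-5p each rest on 1 of 2 probes. The muscle miRNAs miR-133a-3p and miR-133b-3p were present on the sham array only, and miR-1a-3p and miR-206-3p on neither. The part of cell composition in the miR-140 values was not tested.

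**Figure D4:**
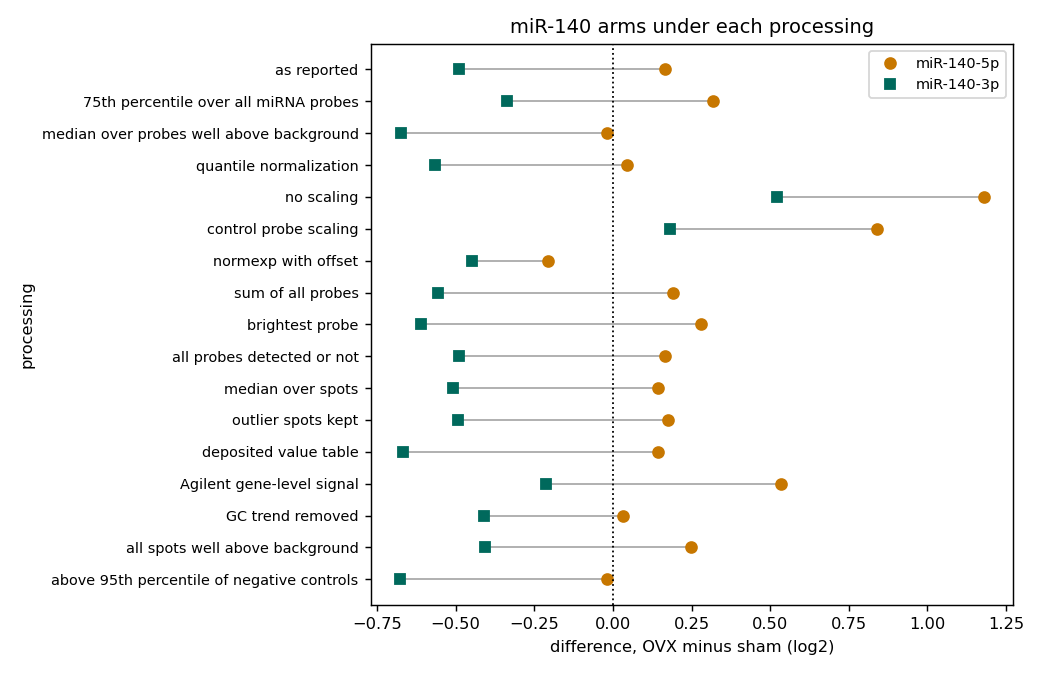
Difference, OVX minus sham (log2), of miR-140-5p (circles) and miR-140-3p (squares) as reported and under the 16 alternative ways of processing. The position of the pair on the axis moves with the scaling, from -0.02 and -0.67 with median scaling to 1.18 and 0.52 without scaling, and the 5p arm lies above the 3p arm under all 17 settings shown, 7 of which keep the contrast as reported by construction.

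The names in the deposited value table matter for miR-140. As printed, that table lists miR-140-5p at its floor (-3.32 in OVX and -3.18 in sham) and miR-140-3p at 4.72 in OVX and 4.58 in sham. With names moved by 1 row the table's Spearman correlation with the array's own gene-level signal was 0.994 on the OVX array and 0.996 on the sham array. As printed it was 0.04 on the OVX array and 0.02 on the sham array. Under the moved names miR-140-5p stood at 4.72 in OVX and 4.58 in sham, and miR-140-3p at 5.31 in OVX and 5.97 in sham. Both arms of miR-455 were at the floor under either naming.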

How the data were processed

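Scanner output came from Agilent Feature Extraction, version 10.7.1.1 per the file headers and 11.0.1.1 per the submitters' processing notes. Per the file headers, the processed intensity of a spot is background-subtracted and not normalized between arrays. A value table on the log2 scale was also deposited; how the authors normalized it is not given in the sources used here. The table's median, at the floor, was -3.32 for OVX and -3.18 for sham, and its names were moved by 1 row. The labels' protocols name a cRNA amplification kit for the Cy3 label.

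Outlier spots were left out (2.90% of miRNA spots on the OVX array and 2.75% on the sham array); no miRNA spot was saturated. Spot intensities were averaged for each probe; their log2 was taken and scaled to the 75th percentile. Levels are means over a miRNA's probes well above background on both arrays. For a miRNA present on 1 array, the bound sets its level against the higher of the other array's lowest present level and the probe's own. Where the probe's own is the higher, the result is a ratio of measured signals and not a limit. The steps were also run on simulated spots with known differences, drawn from the sham array's probe means and spot SDs. Such spots check the calculation only, since they hold no GC trend and no variation between arrays beyond a constant shift. Python 3.11.15, pandas 2.3.3 and, for normexp, limma 3.58.1 were used. Named miRNAs were the members, those with the same seed, the 3 nearest by difference and list members present on an array, with the cell markers; hairpins named in the arm comparison were picked after their values were seen. Members and lists were chosen with earlier results of these data known.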

Additional observations from a re-analysis of the deposited data

How the results depend on the processing

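With 1 array per group, the number of arrays limits the precision. Dim signal limits miR-455, which was present under 0 of the settings. No paired analysis was possible because each group has a single array. Of the 16 alternatives, 7 leave the miR-140 contrast at 0.66 by construction, since they shift all probes alike or keep its probes. Under the other 9 it was above 0 (0.24 to 0.89), and it moved by more than the spread between probes with GC correction (0.44), normexp (0.24), the brightest probe (0.89) and the value table (0.81). The arms lay on opposite sides of 0 under 11 of the 16. Unless a value or a constant shift shows otherwise, the cause of a change was not tested.

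miR-140-5p was at 0.32 with the 75th percentile of all probes, -0.018 with median scaling, 0.045 with quantile normalization, 1.18 without scaling and 0.84 with control probes. It was at -0.21 with normexp, 0.28 with its brightest probe, 0.54 with the gene-level signal, 0.033 with GC correction and -0.020 with the negative control filter. miR-140-3p was at -0.34 with all probes' percentile, -0.67 with median scaling, 0.52 without scaling, 0.18 with control probes, -0.61 with its brightest probe, -0.67 in the value table, -0.21 with the gene-level signal and -0.68 with the negative control filter. Probes taken singly, added after seeing the data, gave 0.052 and 0.28 for miR-140-5p and -0.37 and -0.61 for miR-140-3p.

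Of 197 miRNAs as reported, 22 reached 1.5-fold on the higher side and 29 on the lower, and 4 and 4 passed 2-fold. The number measured was 281 in the value table and with the gene-level signal, 157 with all spots required and 385 with the negative control filter, so those counts have other denominators. Counts at 1.5-fold, higher then lower, were 155 and 0 without scaling, 108 and 2 with control probes, 13 and 46 with median scaling, 46 and 75 in the value table, 66 and 41 with the gene-level signal, 7 and 23 with normexp, 31 and 17 with all probes' percentile, 23 and 13 with all spots required, and 28 and 120 with the negative control filter. Counts at 2-fold in that order were 97 and 0, 43 and 0, 2 and 12, 10 and 43, 24 and 28, 0 and 0, 12 and 3, 5 and 2, and 4 and 53. At 2-fold, 7 were lower with quantile normalization and 7 with spot medians, and 2 were higher with GC correction.

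The cartilage list's median, less that of all miRNAs, was 0.18 as reported, 0.047 with GC correction (5 of 10 members above the median of all, against 8 of 10) and 0.30 with the negative control filter. For the marker lists it was 0.81, against 0.59, 0.58 and 0.64 with GC correction, the negative control filter and the gene-level signal.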
